A study of Homo sapiens with 18 samples.

Results

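The CXC chemokine genes CXCL1, CXCL2, CXCL3, CXCL5 and CXCL8 and the CC chemokine gene CCL20 were chosen by symbol, with no threshold on their values. Earlier results of these data were known when the genes were chosen. They were read by gene ID from RNA-Seq of MCF10A-ErSrc cells and looked up in 4 lists of RNAPII (RNA polymerase II) peaks. Of the 6 genes, 5 were listed among the 23604 genes with a read in at least 1 library. CXCL5 was in none of the 8 RNA-Seq files, which leave out genes without a read, so a level of 0 could not be told apart from a gene missing from the reference transcripts.

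MCF10A-ErSrc is an immortalised human breast epithelial line that carries a v-Src kinase fused to the ligand-binding domain of the oestrogen receptor, so that tamoxifen switches the kinase on and the cells transform. All groups carry this fusion. NT cells had no tamoxifen and TAM cells had been transformed with 2 µM tamoxifen. Both received either DMSO or triptolide (TPL) for 4 h. TPL is a plant diterpenoid whose target is XPB, a helicase in TFIIH, the factor that opens promoter DNA for RNAPII. Each of the 4 groups had 2 RNA-Seq libraries from 2 independent replicates of this line, and the ChIP-Seq samples gave 1 peak list per condition. The comparisons ask what TPL does to the RNA of untransformed and of transformed cells, and how these cells differ.

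Chemokines are small secreted proteins that attract leukocytes along a gradient. CXCL1, CXCL2, CXCL3, CXCL5 and CXCL8 (interleukin 8) carry the Glu-Leu-Arg motif that lets them bind CXCR2, and CXCL8 also binds CXCR1 with high affinity, so that together they draw neutrophils. CCL20 binds CCR6, which is carried by dendritic cells and by some T and B cells. Epithelial cells make them in response to interleukin 1 and tumour necrosis factor, largely through NF-kB at the promoter, and their mRNAs carry AU-rich elements that make them short-lived. The 5 CXC genes lie in a cluster on chromosome 4, while CCL20 lies on chromosome 2.

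The 110 bases before the transcription start site (TSS) of each gene are shown because RNAPII peaks were scored at these positions and because 4 of the promoters belong to genes that moved together. They are given 5′ to 3′ on the strand of the gene, were taken from RefSeq's promoter table (GRCh38.p14, where all 6 genes matched) and were placed on build 37 (hg19, the build of the peak lists) by exact match. Capitals mark matches to the NF-kB consensus or to GGAATTTCC, and to TATAAA or ATAAAA.
CXCL1, chr4:74735000-74735109, plus strand: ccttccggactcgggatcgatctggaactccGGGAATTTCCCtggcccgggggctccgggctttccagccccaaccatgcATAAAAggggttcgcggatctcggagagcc
CXCL2, chr4:74964913-74965022, minus strand: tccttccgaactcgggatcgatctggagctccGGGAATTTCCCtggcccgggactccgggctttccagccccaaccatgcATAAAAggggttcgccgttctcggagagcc
CXCL3, chr4:74904407-74904516, minus strand: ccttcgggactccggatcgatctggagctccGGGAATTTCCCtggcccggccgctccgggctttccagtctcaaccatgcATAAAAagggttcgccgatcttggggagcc
CXCL5, chr4:74864395-74864504, minus strand: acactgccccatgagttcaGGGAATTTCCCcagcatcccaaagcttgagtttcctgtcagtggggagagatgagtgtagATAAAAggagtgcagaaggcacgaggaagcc
CXCL8, chr4:74606176-74606285, plus strand: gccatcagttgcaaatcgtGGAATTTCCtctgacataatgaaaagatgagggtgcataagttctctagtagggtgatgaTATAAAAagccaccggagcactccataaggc
CCL20, chr2:228678448-228678557, plus strand: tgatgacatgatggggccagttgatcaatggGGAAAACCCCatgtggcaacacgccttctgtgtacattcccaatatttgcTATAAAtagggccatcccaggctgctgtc

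The 5 CXC promoters held the same 9 letters, GGAATTTCC, which 0.461% of 35116 RefSeq promoter windows of 300 bases (250 before to 50 after the TSS) held on either strand. The match began 78 bases before the TSS in CXCL1 and CXCL3, 77 in CXCL2, 90 in CXCL5 and 91 in CXCL8. The longer NF-kB consensus, which overlaps those letters, was matched in CXCL1, CXCL2, CXCL3, CXCL5 and, on the opposite strand, CCL20, against 5.91% of all windows. In CCL20 the match lay 70 to 79 bases before the TSS. A TATA-like match lay within 31 bases of the TSS in every one of the 6 genes. ATAAAA was found in the 5 CXC genes and in 9.44% of all windows on the strand of the gene. TATAAA was found in CXCL8, where it overlaps ATAAAA, and in CCL20, against 7.33% of all windows. The AP-1 letters TGANTCA were matched only in CXCL8, 131 to 137 bases before its TSS, against 7.71% of windows on either strand. A match of letters is a description and not a binding site.

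CXCL1, CXCL2 and CXCL3 are near copies of each other. Over the 250 bases before the TSS, CXCL1 and CXCL3 were 81.4% identical, CXCL2 and CXCL3 73.3% and CXCL1 and CXCL2 68.0%. Their canonical transcripts were 83.4% identical between CXCL1 and CXCL2, 71.5% between CXCL2 and CXCL3 and 68.0% between CXCL1 and CXCL3. Of all 50-base windows of the CXCL2 transcript, 5.63% were also found in CXCL1 and 5.07% in CXCL3. RSEM shares reads that match several transcripts by estimation, so the split between these genes is less certain than their sum, which was also tested.

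The libraries held between 7461309 and 8349448 expected counts (the reads per gene that RSEM estimates). Levels are given as FPKM, estimated fragments scaled to transcript length and to the mapped total of the library, which allow genes to be compared within a library. They are relative to the RNA of each library. As these are bulk cultures, fewer cells making an RNA and less of it per cell cannot be told apart. All 10 epithelial markers were listed, and KRT5, KRT6A and KRT17 reached 434 FPKM or more in every library, while TP63, a factor of basal cells, was at 13.2 to 24.2 FPKM without TPL and 0.28 to 0.89 FPKM with it. Of the leukocyte markers, PTPRC and CD3E were at most 2.14 and 0.17 FPKM, but CD68 reached 473, LYZ 47.2, CD14 18.6 and ITGAM 9.82 FPKM.

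Without TPL the CXC genes were among the abundant RNAs of both NT and TAM cells, and TPL left little of 4 of them. CXCL1 and CXCL2 were the most abundant in all 4 libraries without TPL. In NT cells CXCL1 was at 142 and 149 FPKM, and CXCL2 at 181 and 167 FPKM. CXCL3 was at 43.8 and 50.6 FPKM, CXCL8 at 41.6 and 39.2 FPKM and CCL20 at 54.3 and 46.8 FPKM. These values place the 5 genes between rank 353 and rank 1726 of each NT library by FPKM. CXCL3, CXCL8 and CCL20 lay close to each other: CXCL3 and CCL20 changed order between the NT replicates.

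In TAM cells CXCL1 was at 418 and 432 FPKM, CXCL2 at 388 and 398 FPKM and CXCL3 at 249 and 233 FPKM. CXCL8 was at 82.2 and 83.3 FPKM and CCL20 at 134 and 173 FPKM. The order was CXCL1, CXCL2, CXCL3, CCL20 and CXCL8 in both TAM libraries, with no overlap between neighbours. CXCL1 stood at rank 178 and 180.

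With TPL, CXCL1 was at 4.32 and 1.35 FPKM in NT cells and at 8.06 and 3.48 FPKM in TAM cells. CXCL2 was at 8.34 and 3.69 FPKM in NT + TPL and at 5.40 and 4.94 FPKM in TAM + TPL. CXCL3 was at 1.86 and 1.71 FPKM and at 5.92 and 3.88 FPKM in the same groups. Each of these is a small remainder of the level without TPL: the group means kept 1.95% of CXCL1, 3.46% of CXCL2 and 3.78% of CXCL3 in NT cells and 1.36%, 1.32% and 2.04% in TAM cells. CXCL8 was at 3.49 and 2.16 FPKM in NT + TPL and at 6.23 and 5.50 FPKM in TAM + TPL, 6.99% and 7.09% of the means without TPL. CCL20 stood apart, at 12.7 and 42.7 FPKM in NT + TPL and at 88.4 and 95.7 FPKM in TAM + TPL. Its means kept 54.8% in NT and 59.8% in TAM cells, and it was the most abundant of the 5 genes in all 4 TPL libraries.

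**Figure D1:**
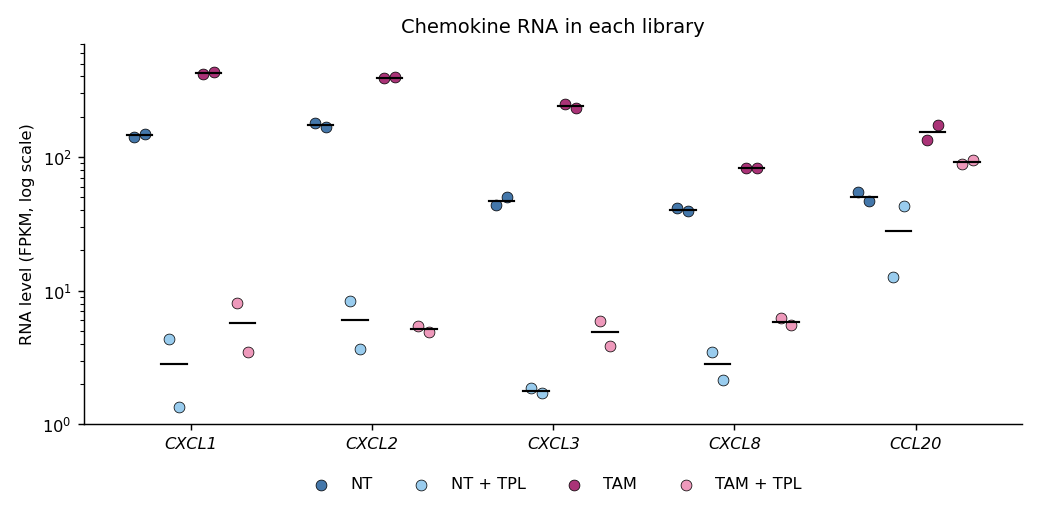
RNA level in FPKM on a log axis of the 5 chemokine genes with reads, by group; each point is a library (n = 2 per group) and each bar the mean of the 2. CXCL1, CXCL2, CXCL3 and CXCL8 lie between 39.2 and 432 FPKM without TPL and at 8.34 FPKM or less with it, while CCL20 lies between 12.7 and 95.7 FPKM with TPL.

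To test these differences, the rounded expected counts of all genes were fitted with edgeR's quasi-likelihood test, and a gene was called when its adjusted p (Benjamini-Hochberg) was at most 0.001 and its log2 fold change at least 1.2 in size. With TPL in NT cells, CXCL1, CXCL2, CXCL3 and CXCL8 were called lower, that is 4 of the 5 tested genes, where 2.71% of the 16948 genes tested were called lower and 1.22% higher. CXCL1 fell by 5.69 on the log2 scale (SE 0.499, adjusted p = 0.000518) and CXCL2 by 4.87 (SE 0.311, adjusted p = 0.000232). CXCL3 fell by 4.74 (SE 0.240, adjusted p = 0.000192) and CXCL8 by 3.84 (SE 0.212, adjusted p = 0.000195). The smallest of these, CXCL8, was a 14.4-fold fall, and 1.92% of genes had a larger one. The fitted log2 fold change of CCL20 was -0.85 (SE 0.492, adjusted p = 0.208), with a 95% interval from -2.02 to 0.31 that includes no change.

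In TAM cells the same 4 genes were called lower with TPL, beside 2.04% of all genes tested (and 0.844% called higher). CXCL1 fell by 6.27 on the log2 scale (SE 0.486, adjusted p = 0.000413) and CXCL2 by 6.3 (SE 0.329, adjusted p = 0.000234). CXCL3 fell by 5.66 (SE 0.223, adjusted p = 0.000167), which had the 4th smallest p of all genes. CXCL8 fell by 3.87 (SE 0.202, adjusted p = 0.000234), a 14.6-fold fall. CCL20 was at -0.79 (SE 0.471, adjusted p = 0.232, 95% interval -1.90 to 0.32). Its levels were below those of the DMSO libraries in both TPL libraries of either cell state, but 33.7% of all genes in NT cells and 36.4% in TAM cells did the same. The 5 genes had a median log2 fold change of -4.74 for NT and -5.66 for TAM cells, against 0.09 and 0.05 over all genes tested. The TMM scaling of the fit sets the typical gene near 0 in every comparison. A fall shared by most RNAs would therefore not show in the medians over all genes.

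The NT + TPL replicates decided the value of CCL20. Without replicate 1 it was at -0.22 in NT cells (adjusted p = 0.454), and without replicate 2 at -2.02 (adjusted p = 0.00373). With any library left out, the log2 fold changes of the 4 CXC genes stayed between -7.00 and -3.56, but their calls at an adjusted p of 0.001 depended on the libraries. Without any NT, TAM or TAM + TPL library none was called in either state, at adjusted p between 0.00123 and 0.00607. Without NT + TPL replicate 1, CXCL2, CXCL3 and CXCL8 were called in NT cells, without replicate 2 only CXCL2 was, and in TAM cells all 4 were called without either.

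**Figure D2:**
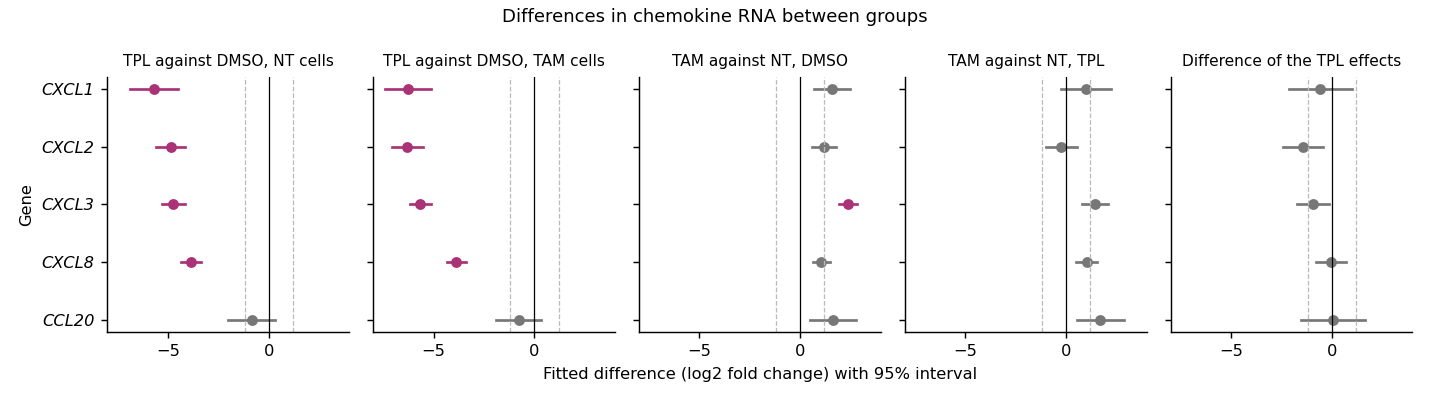
Fitted log2 fold change (point) and its 95% interval (line) of 5 chemokine genes in 5 comparisons; dashed lines mark 1.2 in either direction, and coloured points passed both thresholds. The 4 CXC genes lie between -6.3 and -3.84 with TPL in both cell states, and the intervals of CCL20 cross 0 there.

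The makeup of the group differed with TPL as well as its size. The summed FPKM of the 5 genes was 462 and 453 in NT cells and 30.8 and 51.6 in NT + TPL. It was 1271 and 1319 in TAM cells and 114.0 and 113.5 in TAM + TPL. CCL20 held 11.7% and 10.3% of that sum in NT cells and 10.6% and 13.1% in TAM cells. With TPL it held 41.4% and 82.7% in NT cells and 77.5% and 84.3% in TAM cells. In 3 of the 4 TPL libraries the RNA of CCL20 thus exceeded the summed RNA of the 4 CXC genes. These are RNA levels, and the secreted proteins were not tested.

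**Figure D3:**
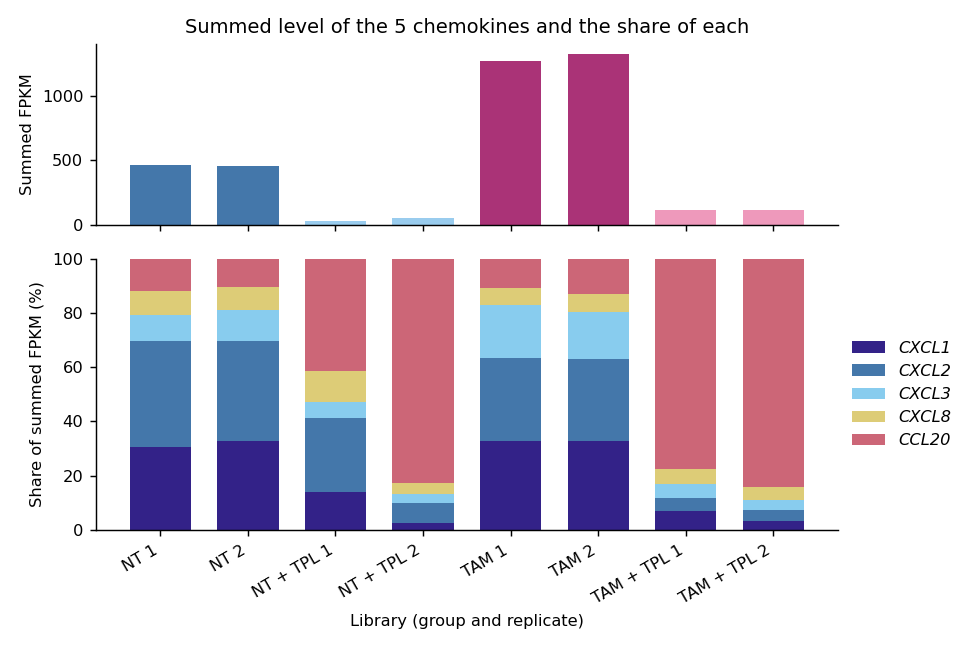
Summed FPKM of the 5 chemokine genes in each library (upper panel) and the share of each gene in that sum in percent (lower panel), with no error bars as each bar is a single library. CCL20 makes up 10.3 to 13.1% without TPL and 41.4 to 84.3% with it.

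Without TPL the levels were higher in TAM than in NT cells, and a single gene passed both thresholds. TAM cells differ from NT cells in tamoxifen as well as in transformation, and the effects of these cannot be told apart here. CXCL3 was called higher in TAM than in NT cells (2.37 on the log2 scale, SE 0.183, adjusted p = 0.000771), a 5.16-fold difference, where 0.378% of all genes were called higher and 0.277% lower. This call was lost with any library left out (adjusted p between 0.00109 and 0.0126) and with GAPDH as the reference, where the median gene was at -0.50. CXCL2 was at 1.19 (SE 0.253, adjusted p = 0.038) and CXCL8 at 1.05 (SE 0.176, adjusted p = 0.0161), which passed neither the fold nor the p threshold. CXCL1 was at 1.56 (SE 0.379, adjusted p = 0.0598) and CCL20 at 1.62 (SE 0.483, adjusted p = 0.11). Both TAM libraries lay above both NT libraries for each of the 5 genes, as 25.0% of all genes did. The median of the 5 was 1.56 and that of all genes -0.03.

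With TPL in both arms, none of the 5 genes was called between TAM and NT cells by edgeR. Of all genes 0.36% were called higher and 0.236% lower. An unadjusted p below 0.05 was found for 3 of the 5 genes and for 3608 of the 16948 genes tested. CXCL3 was at 1.44 (SE 0.267, adjusted p = 0.0233), and DESeq2 called it. CXCL8 was at 1.03 (SE 0.217, adjusted p = 0.0367) and CCL20 at 1.69 (SE 0.495, adjusted p = 0.1). CXCL1 was at 0.99 (SE 0.532, adjusted p = 0.349). CXCL2 was at -0.24 (SE 0.326, adjusted p = 0.751), since NT + TPL and TAM + TPL overlapped for CXCL1 and CXCL2 and for no other member. The order of the groups was therefore TAM, NT, TAM + TPL and NT + TPL for CXCL3 and CXCL8, and TAM, TAM + TPL, NT and NT + TPL for CCL20.

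Whether TPL acted differently in NT and TAM cells was tested as an interaction. The difference of the TPL effects, TAM less NT, was -1.43 for CXCL2 (SE 0.412, adjusted p = 0.301) and -0.92 for CXCL3 (SE 0.331, adjusted p = 0.401). It was -0.57 for CXCL1 (SE 0.659, adjusted p = 0.798), -0.02 for CXCL8 (SE 0.313) and 0.07 for CCL20 (SE 0.675), both with an adjusted p of 1. No member was called by edgeR or by DESeq2, and 2 of 5 had an unadjusted p below 0.05. Over all genes edgeR called 0 (0.0% in either direction), with 1799 at an unadjusted p below 0.05, and DESeq2 called 144. The intervals were wide, from -0.76 to 0.72 for CXCL8 and from -1.53 to 1.66 for CCL20.

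As the transcripts of CXCL1, CXCL2 and CXCL3 share stretches, their counts were also added into 1 row, an alternative chosen after seeing the data. The sum fell by 5.12 on the log2 scale with TPL in NT cells (SE 0.366, adjusted p = 0.000297) and by 6.12 in TAM cells (SE 0.378, adjusted p = 0.000297). In TAM against NT cells with DMSO it was at 1.54 (SE 0.304, adjusted p = 0.0293).

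RNAPII ChIP-Seq was read from the deposited lists of peaks that contain a TSS, which give starts and ends on hg19 and no height. In the NT list 4 of the 6 genes had a peak over the TSS, and 47.8% of 19856 protein-coding genes did. The peak at CXCL1 (chr4:74734734-74736443) spanned 1710 bases and covered 69.6% of the gene. That at CXCL2 (chr4:74961643-74965414) spanned 3772 bases and the whole gene, running 1114 bases past its end. The peak at CXCL3 (chr4:74903983-74904627) spanned 645 bases around the promoter, near the list's median of 632. The peak at CCL20 (chr2:228678444-228684417) spanned 5974 bases and ran 2145 bases past the gene's end, wider than 98.7% of the list.

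In the TAM list the same 4 genes had peaks, and each covered its whole gene, while 14.8% of the genes with a peak in the NT list had none in the TAM list. They spanned 5054 bases at CXCL1 (chr4:74733904-74738957), 4307 at CXCL2 (chr4:74961135-74965441), 4665 at CXCL3 (chr4:74900795-74905459) and 6111 at CCL20 (chr2:228678247-228684357). They were wider than 99.2%, 99%, 99.1% and 99.4% of the list. Between the lists the peak at CXCL3 went from 51.1% to 99.1% of peaks being narrower, and CXCL3 is also the gene called higher in RNA. At 8082 genes with a peak in both lists the TAM peak had a median of 69.6% of the NT width, while the member peaks had 296% at CXCL1, 114% at CXCL2, 723% at CXCL3 and 102% at CCL20. The TAM list may not have been called as the other 3 were: its peak names carry a q of 0.1 and theirs a cutoff of 0.02, and 41.5% of its names end in a letter, as those of split peaks do. Each list also stands for both ChIP replicates, so no replicate error can be given.

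With TPL the peaks were not listed or were shorter. In the NT + TPL list none of the 4 genes kept a peak, while 22.9% of the 9482 genes with a peak in the NT list had none there. The nearest listed peak lay 58343 bases or more from their TSSs. In the TAM + TPL list CXCL1 had no peak, which was so for 19.1% of the 8361 genes with a peak in TAM. CXCL2 kept 340 bases (chr4:74964813-74965152), CXCL3 237 bases (chr4:74904356-74904592) and CCL20 1242 bases (chr2:228678420-228679661). Those at CXCL2 and CXCL3 began 240 and 186 bases before the TSS and ended 99 and 50 bases into the gene. They covered the promoter sequences printed above and extended past them on both sides. The peaks at CXCL2, CXCL3 and CCL20 had 7.89%, 5.08% and 20.3% of the TAM width. The median over 6762 genes with a peak in both lists was 104%.

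**Figure D4:**
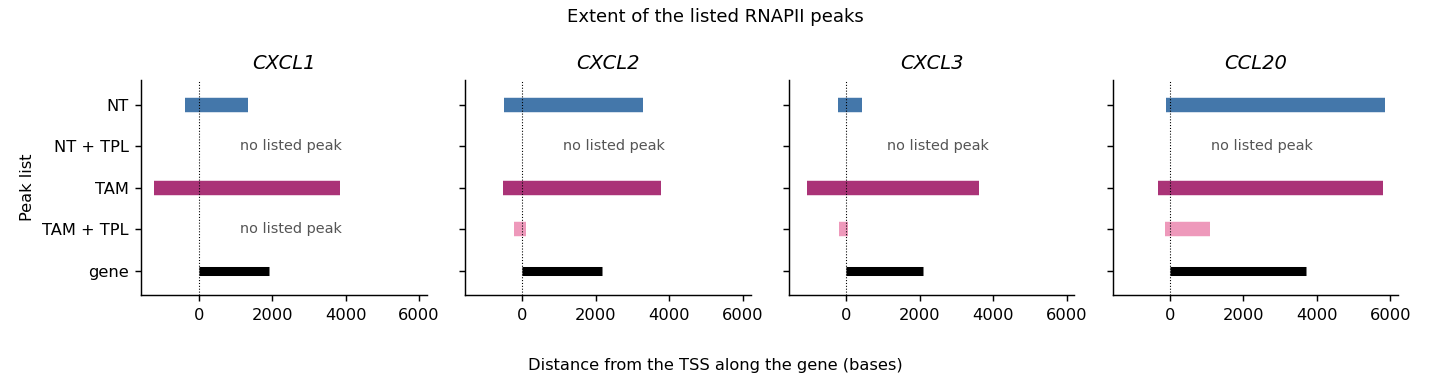
Extent of the listed RNAPII peaks over the TSS of 4 chemokine genes, in bases from the TSS along the gene, with 1 bar per list and the gene in black. The NT and TAM peaks run up to 5859 bases past the TSS, while with TPL the peaks are not listed or end 50 to 1103 bases past it.

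For some genes RNA was present without a listed peak. The lists hold only peaks over the TSSs that the authors used, so a gene whose TSS was not among these would show none. CXCL8 had no peak in any list and none nearer to its TSS than 127618 bases, although its RNA was at 40.4 FPKM on average in NT and 82.7 FPKM in TAM cells. Of the genes at or above these levels 92.7% and 92.4% had a peak. CCL20 had no peak in NT + TPL at a mean of 27.7 FPKM (12.7 and 42.7 FPKM), where 79.4% of the genes at or above that level had one. CXCL5, with no RNA listed, had no peak in any list either.

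Along chromosome 4 the CXC genes are interleaved with relatives that had few or no reads. Counting from the TSS of CXCL8, CXCL6 lies at 96.1 kb, PF4V1 at 112.7 kb, CXCL1 at 128.8 kb, PF4 at 241.5 kb, PPBP at 247.6 kb, CXCL5 at 258.1 kb, CXCL3 at 298.1 kb and CXCL2 at 358.6 kb. CXCL6, the closest relative of CXCL5, was not listed in any library, and PF4V1, PF4 and PPBP, which encode platelet chemokines, were at 1.3 FPKM or less in every library. None of these had a peak. Next comes MTHFD2L, a mitochondrial folate enzyme at 417.5 kb, which had a peak in all 4 lists, and its RNA lay between 4.77 and 7.0 FPKM in the 8 libraries (log2 fold change with TPL -0.27 in NT and 0.21 in TAM cells, adjusted p = 0.432 and 0.556). Farther on lie genes for ligands of the EGF receptor family. EREG, at 624.6 kb, was at 14.08 and 13.04 FPKM in NT cells and 5.12 and 3.22 FPKM with TPL, and at 13.11 and 12.51 FPKM in TAM cells and 3.02 and 3.18 FPKM with TPL. It was called lower in TAM cells (log2 fold change -2.10, adjusted p = 0.000827) and not in NT cells (-1.72, adjusted p = 0.00132), and the difference of these effects was -0.38 (adjusted p = 0.663). AREG, at 704.6 kb, kept its peak in all lists and was called in neither state (log2 fold change -1.12 with an adjusted p of 0.00637 for NT, and 0.37 with 0.193 for TAM). RASSF6, a RAS-association domain protein, was at 1.59 FPKM or less in every library. Beside CCL20, DAW1, 57.8 kb on, fell with TPL in NT cells from 15.3 and 15.4 to 1.25 and 1.03 FPKM (log2 fold change -3.74, adjusted p = 0.000487), and was at -2.66 in TAM cells (adjusted p = 0.0015). Of 9 tested neighbours of the cluster and of CCL20, 1 was called lower in each cell state, beside 2.71% and 2.04% of all genes.

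**Figure D5:**
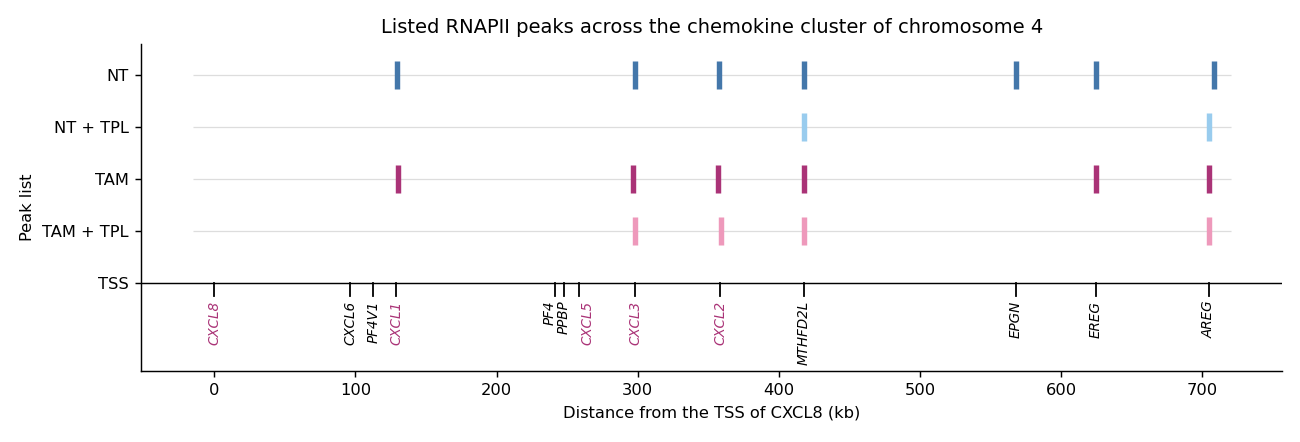
Position of the listed RNAPII peaks (1 tick at the centre of each peak, 1 row per list) and of the TSSs of the genes of the chromosome 4 cluster, in kb from the TSS of CXCL8, with the chemokines described here in colour. Peaks stand at CXCL1, CXCL3 and CXCL2 in the NT and TAM lists, at none of them in NT + TPL, and at CXCL3 and CXCL2 in TAM + TPL.

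The receptors were at 11.6 FPKM or less in every library. None was called with TPL in either state, where 1.22% (NT) and 0.844% (TAM) of all genes were called higher. At an adjusted p of 0.05, CXCR1 and CXCR2 were higher in both states, as 17.2% and 14.3% of all genes were. CXCR1, the receptor most selective for CXCL8, was at 1.18 and 1.23 FPKM in NT cells and 4.27 and 3.67 FPKM with TPL, and at 5.11 and 4.95 FPKM in TAM cells and 11.6 and 10.1 FPKM with TPL. Its log2 fold change for TPL was 1.71 (NT, SE 0.211, adjusted p = 0.00153) and 1.06 (TAM, SE 0.194, adjusted p = 0.00742), and neither passed both thresholds. CXCR2 was at 0.94 and 1.21 FPKM in NT cells and 3.33 and 3.76 FPKM with TPL, and at 3.2 and 3.11 FPKM in TAM cells and 7.64 and 6.45 FPKM with TPL, with log2 fold changes of 1.70 (SE 0.260, adjusted p = 0.00343) and 1.11 (SE 0.246, adjusted p = 0.0149) with TPL. In TAM against NT cells with DMSO, where the ligands were also higher, CXCR1 was at 2.07 (adjusted p = 0.00221) and CXCR2 at 1.56 (adjusted p = 0.0154), and neither was called. CCR6 lay between 1.79 and 5.16 FPKM and the scavenging receptor ACKR1 between 0.89 and 4.56 FPKM in the 8 libraries, with adjusted p between 0.349 and 0.441 for both with TPL. None of the 4 receptors had a peak in any list.

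Other chemokines did not follow the CXC genes. Of 31 looked up, 22 were listed, 5 had enough counts to be tested and none was called in either TPL comparison by edgeR, with 3 at an adjusted p of at most 0.05 in each (in NT cells 2 higher and 1 lower, in TAM cells 3 higher), where 17.2% and 14.3% of all genes were higher at that p. CCL5, which attracts T cells and monocytes, was at 58.6 and 45.0 FPKM in NT cells and 74.2 and 104 FPKM with TPL, and at 39.6 and 37.1 FPKM in TAM cells and 91.7 and 67.7 FPKM with TPL (log2 fold change with TPL 0.78, adjusted p = 0.0448, and 1.01, adjusted p = 0.0223). CXCL16, made as a membrane-bound chemokine, was at 43.0 and 40.8 FPKM in NT and 32.8 and 23.6 in NT + TPL (-0.58, adjusted p = 0.0298). CCL22, a ligand of CCR4, lay between 1.96 and 8.48 FPKM (0.93, adjusted p = 0.0531 and 1.23, adjusted p = 0.0251). CXCL14 had no row in either NT library and was at 11.6 and 10.2 FPKM in NT + TPL, so that no fold is given.

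Some regulators of these genes were also called lower. Of 15 NF-kB subunits and regulators, all tested, 4 were called lower with TPL in NT and 3 in TAM cells and none higher, beside 2.71% and 2.04% of all genes, with a median of -0.84 and -0.78. At an adjusted p of 0.05, 8 and 7 were lower and 1 (NFKB2 in NT cells, 0.79, adjusted p = 0.00731) was higher. Over all genes 19.8% (NT) and 18.6% (TAM) were lower at that p, and 17.2% and 14.3% were higher. BCL3, a co-factor of NF-kB dimers, fell from 57.7 and 43.8 to 3.14 and 1.63 FPKM in NT cells (log2 fold change -4.42, adjusted p = 0.000348) and from 191 and 176 to 13.8 and 9.07 FPKM in TAM cells (-4.05, adjusted p = 0.0004). NFKBIA, which holds NF-kB in the cytoplasm, fell in both (log2 fold change -2.64 and -3.50, adjusted p = 0.000205 and 0.000234). TNFAIP3, which ends NF-kB signalling, fell too (-2.45 and -2.69, adjusted p = 0.000342 and 0.00034). These are inducible targets of NF-kB as well as its regulators. NFKBIZ fell by 2.88 in NT cells (adjusted p = 0.000971) and was at -2.22 in TAM cells (adjusted p = 0.00252).

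Among inducing cytokines and their receptors, 15 of 16 genes were tested, of which 3 were called lower in NT and 4 in TAM cells and none higher, beside 2.71% and 2.04% of all genes called lower. At an adjusted p of 0.05, 5 and 8 were lower and 2 and 1 higher, among them in NT cells the receptor genes IL6R (1.09, adjusted p = 0.00668) and IL17RC (1.09, adjusted p = 0.00432). The shares of all genes at that p were 19.8% and 18.6% lower, and 17.2% and 14.3% higher. IL1B, a strong inducer of CXCL8, fell from 154 and 142 to 6.12 and 6.82 FPKM in NT cells (log2 fold change -4.52, adjusted p = 0.000259) and from 65.7 and 81.1 to 10.2 and 5.51 FPKM in TAM cells (-3.27, adjusted p = 0.000593). IL1A fell in both (-3.10 and -2.63, adjusted p = 0.000294 and 0.000476). The adaptor MYD88 did so as well (-1.79 and -2.26, adjusted p = 0.000652 and 0.000387). TNFRSF1A, the main receptor for tumour necrosis factor, fell in TAM cells (-2.94, adjusted p = 0.000449) and was at -1.87 in NT cells (adjusted p = 0.00147), with a difference of -1.07 (adjusted p = 0.319).

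The mRNAs of proteins that regulate mRNA decay were also lower with TPL. Of 7 tested, 4 were called lower in NT and 2 in TAM cells, beside 2.71% and 2.04% of all genes. At an adjusted p of at most 0.05, 7 of 7 had lower values in both, where 19.8% and 18.6% of all genes did. ZFP36 (tristetraprolin), which destabilises chemokine mRNAs, fell from 975 and 959 to 78.4 and 43.8 FPKM in NT cells (log2 fold change -4.0, adjusted p = 0.000259) and from 1205 and 1011 to 100.8 and 92.1 FPKM in TAM cells (-3.57, adjusted p = 0.000385). ZFP36L1 fell likewise (-4.23 and -4.05, adjusted p = 0.000304 and 0.000392). ZFP36L2 fell by 3.48 in NT cells (adjusted p = 0.000623) and HNRNPD by 1.70 (adjusted p = 0.000921), and in TAM cells they were at -2.92 and -1.04 (adjusted p = 0.00117 and 0.00561). ZFP36 kept a listed peak in all 4 conditions, unlike any of the chemokines.

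The summed level of leukocyte markers was higher with TPL, while CD14 was not higher in TAM cells. The summed level of the 6 markers listed was 75.4 to 90.3 FPKM in NT cells and 146 to 148 FPKM with TPL, and 306 to 331 FPKM in TAM cells and 468 to 530 FPKM with TPL. Most of it was CD68, a lysosomal protein that epithelial cells also make, at 47.1 to 473 FPKM, and LYZ at 17.9 to 47.2 FPKM. ITGAM was called higher with TPL in both states, from at most 0.05 FPKM to between 5.20 and 9.82 FPKM. Over all genes 1.22% (NT) and 0.844% (TAM) were called higher. CD14 was at 168% (NT) and 92.3% (TAM) of its mean without TPL. Of the 5 tested, 3 were higher and 0 lower in each state at an adjusted p of 0.05. Over all genes 17.2% and 14.3% were higher at that p. The summed level of the 10 epithelial markers was 17600 to 19400 FPKM in NT cells and 11100 to 14200 FPKM with TPL, and 8420 to 8650 FPKM in TAM cells and 4540 to 4940 FPKM with TPL. Most of that sum was KRT5, KRT6A and KRT17, and the markers did not all go the same way. EPCAM was at 136% (NT) and 143% (TAM) of its mean without TPL, and ITGB4 at 166% and 129%. At an adjusted p of 0.05, 5 of the 10 were lower and 1 higher in NT cells, and 4 and 0 in TAM cells. Of all genes 19.8% and 18.6% were lower at that p. The summed level of the fibroblast markers lay between 4.33 and 13 FPKM, most of it DCN (3.67 to 6.69 FPKM) and COL1A1 (up to 6.14 FPKM), while COL3A1 was at 0.05 FPKM or less. That of the endothelial markers lay between 0.78 and 2.45 FPKM, most of it PECAM1 (up to 1.69 FPKM). The part of these markers in the chemokine values was not tested.

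Over the 8 libraries the 4 CXC genes varied together, with Pearson's r of log2 CPM between 0.963 and 0.994 for each pair, which reflects the fall with TPL that they share. CCL20 was less like them, with r between 0.446 and 0.657. Genes outside the group with the most similar patterns, among 14130 genes with a mean of at least 1 FPKM, were CWC22, VCF1 and CTCF for CXCL1 (r = 0.999 to 0.995) and CASP2, MID1IP1 and HOXC6 for CXCL2 (0.999 to 0.997). They were IRF2BPL, RIPOR1 and PSMD11 for CXCL3 (0.996 to 0.993), IRF2BPL, MIER1 and SMAGP for CXCL8 (0.997 to 0.995) and SNHG1, PFDN2 and PHF5A for CCL20 (0.990 to 0.977). Likeness in this sense is of shape and not of size: CWC22 was at -0.94 in NT cells with TPL on the log2 scale, and IRF2BPL at -3.78. SNHG1, a host of small nucleolar RNAs and the gene most like CCL20, was at -0.31 in both cell states. None of the 15 choices was kept with Spearman's rank correlation, and 10 were kept on log2(FPKM + 1).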

How the data were processed

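MCF10A-ErSrc cells were profiled by RNA-Seq (8 libraries) and RNAPII ChIP-Seq (8 samples, 2 inputs), with groups taken from the sample titles. TPL was given at 125 nM. From poly-A RNA the authors made expected counts with Bowtie2 and RSEM, which they deposited without normalization. The FPKM values were also deposited by the authors, scaled to transcript length and library. A gene not in a library's file was taken as 0. The authors aligned ChIP reads to hg19, called peaks over input and deposited those that contain a TSS. The processing notes name BWA and MACS 1.4.2, and the study's methods SOAP2. The lists hold positions and no score, so their depth is unknown, and positions are counted from 1 here. ChIP signal was not used here.

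The members and gene lists were chosen with earlier results of these data known. Symbols were found for 21077 of 23604 genes by gene ID and for 2407 by RefSeq accession, and 120 had none. After rounding, edgeR 4.0.16 (R 4.3.3) fitted all 4 groups together by quasi-likelihood, with TMM scaling and its own filter by group, and p values were adjusted over 16948 genes (Benjamini-Hochberg). The thresholds are those of the study's methods, where the paper reports larger shares of genes lower and higher with TPL. The shares of all genes called that are given here are those of edgeR. With 2 libraries per group the precision comes from a spread shared across genes, and totals of 7461309 to 8349448 counts limit the depth. Replicates are described as biological by the study. The genes named are the members, the receptors, the genes between the members in the cluster and the 3 genes most like each member. Up to 4 genes per list were also named, those with a mean of at least 1 FPKM and the largest change with TPL. KRT6A, KRT17, EPCAM, ITGB4, CD3E, CD14, COL3A1, PECAM1, NFKB2, IL6R, IL17RC and MTHFD2L were named after their values were seen. Log2 CPM values used a prior count of 2. TSSs were those of Ensembl canonical transcripts in GENCODE on build 37. Sequences were aligned with Biopython 1.88, and tables and plots made with Python 3.11.15, pandas 2.3.3 and matplotlib 3.10.9. The scripts were tested on simulated data. Alternatives were DESeq2 1.42.0, other scalings (DESeq2 size factors, library size, upper quartile, GAPDH), other filters (none, or 10 counts in every library), a looser p (0.05) or log2 fold change (1), a replicate block, only the groups compared, limma 3.58.1 on log2(FPKM + 1) and log2(FPKM + 0.1), leaving out each library, and for peaks any annotated TSS, a distance of 1000 bases and a width of at least 1000 bases.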

Additional observations from a re-analysis of the deposited data

How the results depend on the processing

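The 4 calls per cell state with TPL were unchanged in number under DESeq2, the other scalings, both filters, both thresholds and limma. The share of all genes called was not the same, however: DESeq2 called 2554 (NT) and 2278 (TAM) of 16948 genes, against 666 and 488 with edgeR. They went to 0 in NT and 0 in TAM cells with a replicate block (adjusted p at most 0.00172) and to 0 in NT cells with only the groups compared, where fewer libraries set the spread (adjusted p at most 0.00789). With a library left out, whose partner was assumed to vary like the other groups, the calls numbered 0 to 3 (NT) and 0 to 4 (TAM). Replicate deviations were hardly correlated between groups (correlation of deviations -0.135 to 0.05), which does not settle whether samples were handled in pairs. Over all genes the block left 0, 0, 37, 30 and 0 calls in the 5 comparisons, against 666, 488, 111, 101 and 0.

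For TAM against NT cells with DMSO, the 1 call became 2 under DESeq2 and 0 with GAPDH, the replicate block, only the groups compared or limma on log2(FPKM + 0.1), and 0 to 0 with a library left out. With TPL, the count of 0 became 1 under DESeq2 and 1 at an adjusted p of 0.05, and was 0 to 0 with a library left out. Over all genes DESeq2 called 745 between TAM and NT cells with DMSO and 671 with TPL, against 111 and 101 with edgeR. The interaction gave 0 in every alternative. Reversed signs occurred near 0: the interaction of CXCL8 was 0.01 with library size, 0.00 with upper quartile, 0.22 with GAPDH, 0.03 with limma on log2(FPKM + 0.1) and -0.31 to 0.33 with a library left out. That of CCL20 ranged from -0.57 to 1.23 and that of CXCL1 from -1.32 to 0.45 with a library left out, and CXCL2 in TAM + TPL against NT + TPL from -0.67 to 0.45. GAPDH moved the median gene to -0.26, -0.07, -0.50, -0.25 and 0.22 in the 5 comparisons. The causes were not tested. Counting only peaks of at least 1000 bases left 1 of 3 members in TAM + TPL and 3 of 4 in NT, and the other peak counts did not move. Spearman's correlation kept 0 of the 15 most similar genes.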
